A study of Mus musculus with 15 samples.

Results

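The semaphorins, plexins and neuropilins are a family of ligands and receptors for contact and guidance signals between cells. All genes whose symbol names a semaphorin of classes 3 to 7, a plexin of types A to D, or neuropilin 1 or 2 were taken. That gave 31 genes, 20 semaphorins, 9 plexins and 2 neuropilins, of 34245 genes in the differentiation table and of 25965 in the IL4 table. Cells came from the bone marrow of male C57BL/6 mice, 8 to 10 weeks old, and every group was grown in colony-stimulating factor 1 (CSF1), the growth factor of the macrophage lineage. Precursors were cells that had not attached after 1 day at 0.6 ng/ml CSF1 in 15% fetal calf serum and were kept for another day in the same medium, and immature macrophages had a further 4 days at 12 ng/ml in 10% serum. Mature macrophages had 1 day at 0.6, 2 days at 12 and 7 days at 120 ng/ml, so that stage, days in culture and CSF1 dose cannot be told apart. Mature macrophages of the IL4 table spent 48 h more at 120 ng/ml CSF1, either alone (unstimulated) or with 20 ng/ml interleukin 4 (IL4), a signal of allergic and anti-parasite immunity. There were 3 libraries a group and 5 groups, and the titles number the mice from 1 to 3 in every group.

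Semaphorins are ligands that steer moving cells. Those of class 3 are secreted and mostly act through a neuropilin joined to a plexin, while those of classes 4 to 7 sit in the membrane of the cell that makes them and bind plexins directly. A bound plexin acts on Ras-family GTPases inside the cell, which loosens integrin adhesion and reshapes the actin cytoskeleton, and the neuropilins also serve as co-receptors of vascular endothelial growth factor. In the macrophage lineage the family is known for roles in migration, in contacts with T cells and in the formation of osteoclasts.

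The promoters of 4 genes are shown because these genes formed a clear pair of opposite patterns, the neuropilins rising and Sema4a and Sema4b falling at both steps of differentiation. Each run is the RefSeq sequence (GRCm38.p6) of the 250 bases before the transcription start nearest to the deposited gene start, written 5′ to 3′ on the gene's strand, with capitals for the core letters GAGGAA (on either strand) recognised by PU.1, a transcription factor that specifies macrophages. The Nrp1 run lies at chr8:128358823-128359072 on the plus strand, that of Nrp2 at chr1:62703067-62703316 on the plus strand, that of Sema4a at chr3:88461183-88461432 on the minus strand and that of Sema4b at chr7:80186620-80186869 on the plus strand.
Nrp1: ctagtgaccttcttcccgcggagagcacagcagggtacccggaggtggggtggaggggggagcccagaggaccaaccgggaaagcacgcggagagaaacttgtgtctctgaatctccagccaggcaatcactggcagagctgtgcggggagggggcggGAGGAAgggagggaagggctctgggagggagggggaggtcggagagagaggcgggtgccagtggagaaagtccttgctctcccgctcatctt
Nrp2: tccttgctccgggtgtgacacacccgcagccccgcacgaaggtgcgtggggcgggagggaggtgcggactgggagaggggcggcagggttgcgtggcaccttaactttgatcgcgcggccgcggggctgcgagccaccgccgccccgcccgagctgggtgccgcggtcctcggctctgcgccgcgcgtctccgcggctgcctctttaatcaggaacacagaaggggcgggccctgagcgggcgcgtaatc
Sema4a: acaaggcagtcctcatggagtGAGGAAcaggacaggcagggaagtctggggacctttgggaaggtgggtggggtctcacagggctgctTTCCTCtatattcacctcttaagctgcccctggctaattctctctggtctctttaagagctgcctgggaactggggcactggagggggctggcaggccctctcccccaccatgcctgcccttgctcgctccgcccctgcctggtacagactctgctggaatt
Sema4b: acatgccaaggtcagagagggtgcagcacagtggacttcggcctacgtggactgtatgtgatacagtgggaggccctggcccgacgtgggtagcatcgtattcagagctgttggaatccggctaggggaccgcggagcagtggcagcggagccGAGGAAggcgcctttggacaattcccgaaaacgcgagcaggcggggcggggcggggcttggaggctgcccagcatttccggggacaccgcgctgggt
The PU.1 core was found in windows of 300 bases (250 before and 50 after the start) in 12 of the 37 promoters that the table holds for 26 members, where 28.28% of all 32851 promoters of the same length held it. These belonged to 10 genes, Nrp1, Plxnb3, Plxnc1, Plxnd1, Sema3g, Sema4a, Sema4b, Sema4f, Sema4g and Sema6b. Plxnc1 had 4 matches in its window, where 0.12% of all promoters had at least 4, and Sema4a, Sema4f and Plxnd1 had 2 each, where 4.82% had at least 2. The match thus occurred both in members that rose and in members that fell. Plxna1, Plxna4, Sema3b, Sema3f and Sema6a had no entry. Member promoters had a median GC content of 63.7% (range 41.3 to 75.7%), against 52.7% over all promoters.

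The differentiation libraries held 7897769 to 22167294 reads in genes and the IL4 libraries 2408531 to 4214266, so low members were less well resolved with IL4. The labels were checked with known genes. Csf1r, the receptor of CSF1, was at 899.9 ± 111 CPM (reads of a gene scaled to the size of its library) in precursors, 2868 ± 1237 in immature and 1877 ± 426 in mature macrophages (SD, n = 3). Adgre1, which encodes the macrophage antigen F4/80, was at 195 ± 41.7, 1540.1 ± 389 and 2495 ± 1029 CPM. Arg1, a standard IL4 response gene, was at 5.11 ± 6.06 CPM unstimulated and 1804 ± 137 with IL4. Precursors also held markers of other marrow cells: 9 neutrophil genes, all with reads, summed to 6799 to 9604 CPM there, to 158 to 176 in immature macrophages (Retnlg at 0) and to 0.648 to 4.67 in mature ones (6 of 9 at 0, Mpo and Elane among them). The 5 monocyte genes summed to 2721 to 3232, 307 to 416 and 0.971 to 3.52 CPM in the same order, and the 7 B cell genes to 262 to 386, 1.81 to 2.94 and 0 to 0.0765 CPM.

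Of the 31 members, 16 reached a group mean of 5 CPM in the differentiation table, 4 lay between 1 and 5 CPM and 11 stayed under 1 CPM. With and without IL4, 13 reached 5 CPM, 2 lay between 1 and 5 and 16 stayed under 1. Detection was uneven by class: 8 of 9 plexins and both neuropilins had enough reads to be tested in differentiation, but 9 of 20 semaphorins. The secreted class 3 semaphorins were nearly silent. Sema3a had no read in any library, Sema3b, Sema3d and Sema3e had at most 3 reads over a group, and Sema3g had 19 reads in precursors and none later (at least 3.66-fold lower in immature macrophages, taking 3 reads over a group as the floor of a group at 0). Sema3f had 23, 9 and 12 reads over the 3 libraries of precursors, immature and mature macrophages. Sema5b and Sema6a also had no reads, and Sema5a was listed with 33 reads in precursors (at 0, 1.05 and 0.562 CPM) and none elsewhere. Plxnb1, a receptor of Sema4d, had 19 reads in precursors, 1 in immature macrophages and none in the other groups, and its fold change of 11 between the first pair has a 95% counting interval of 1.75 to 456. Intervals and floors of this kind cover counting error only.

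To set genes of unequal length side by side, levels were also expressed per length, as CPM per kilobase of merged exons. On that scale the 20 semaphorins together stood at 84.5, 94.2 and 91.9 in the 3 precursor libraries, 48.6, 42 and 39.8 in immature and 29, 44.3 and 72.2 in mature macrophages. All precursor libraries were above all others of the table, and the mature libraries spread over the immature ones. The summed plexin level per length was 89, 92.8 and 73.4 in precursors, 284, 240.1 and 182 in immature and 153, 174 and 189.6 in mature macrophages. Precursors were lowest without overlap, and mature macrophages overlapped the immature. Summed neuropilin levels per length rose in order and without overlap, from 21.3, 23 and 15.1 to 76.3, 86.2 and 81.3 and 165, 187 and 170.4. Receptors (plexins and neuropilins) over ligands thus gave ratios of 1.31, 1.23 and 0.963 in precursors, 7.41, 7.76 and 6.62 in immature and 11, 8.14 and 4.98 in mature macrophages. In the IL4 table, which was scaled separately, the ratio was 5.73, 6.07 and 5.95 unstimulated and 9.21, 7.80 and 9.06 with IL4, again without overlap. These sums are descriptions and no test was made of them.

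**Figure D1:**
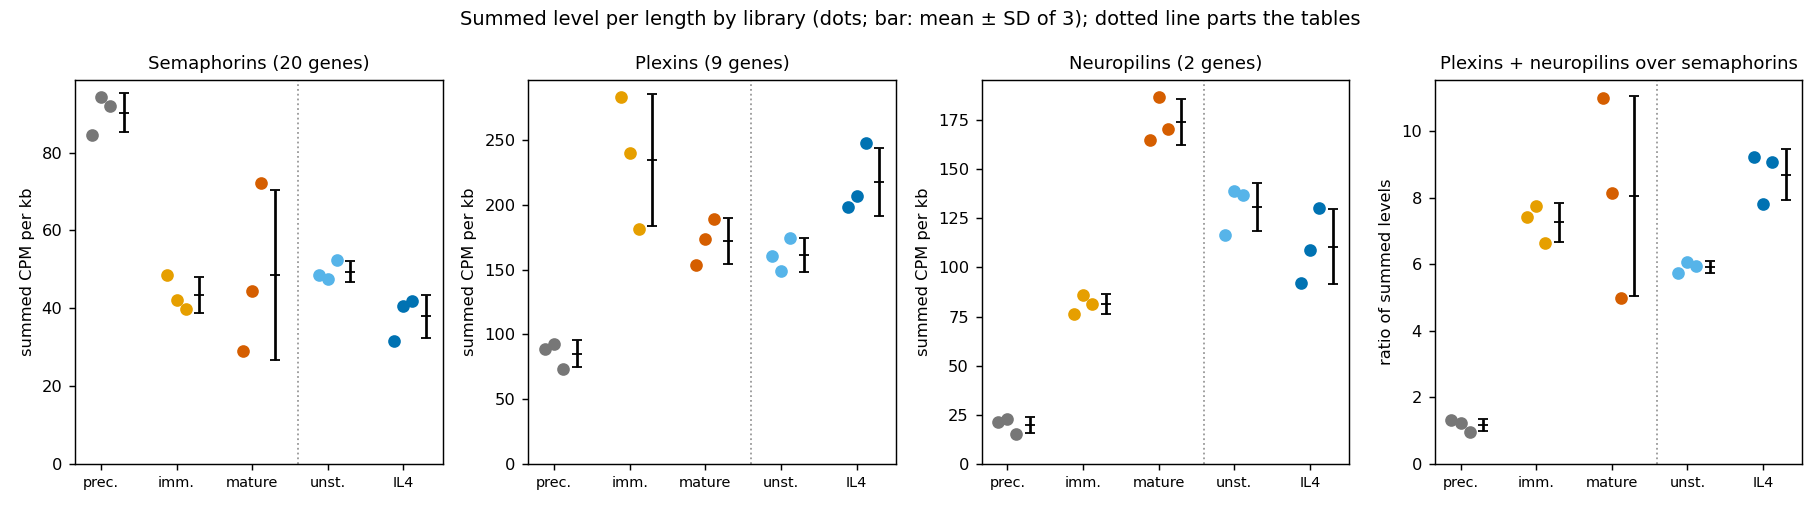
Summed level per length (CPM per kb of merged exons) of semaphorins, plexins and neuropilins, and the ratio of receptors to ligands, in each library. Dots are libraries of precursors (prec.), immature (imm.), mature, unstimulated (unst.) and IL4-treated macrophages, bars the mean ± SD of 3, and the dotted line parts the 2 tables, which were scaled separately; the ratio is 1.17 ± 0.18 in precursors and 7.26 ± 0.583 in immature macrophages.

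A few genes carried these sums. In precursors the highest levels per length of merged exons were those of Plxnb2 (42.3 ± 8.12 CPM per kb, SD, n = 3), Sema4d (35.5 ± 3.89) and Sema4a (30.5 ± 5.04), the next being Plxnc1 at 18.2 ± 1.50. The ranges of Plxnb2 and Sema4d overlapped there. In immature macrophages Plxnb2 led at 134 ± 20.4, followed by Nrp1 at 51.5 ± 5.45, Plxnc1 at 41.9 ± 17.4 and Plxnd1 at 35.1 ± 10.3 CPM per kb. Mature macrophages had Plxnb2 at 112 ± 22.2 and Nrp1 at 106 ± 10.1, which did not differ beyond their spread, then Nrp2 at 68.2 ± 8.13 and Sema4d at 34.8 ± 19. The order between genes depends on the length used. The longest transcript of Nrp1 has 3645 bases and its merged exons 9785, and by the longest transcript its mature level per length was 284, above Plxnb2 at 133. By that length precursors had Sema4d first at 60.9, then Sema4a at 51.4, Plxnb2 at 50.2 and Nrp1 at 39.8. Among ligands Sema4d had the highest mean level per length in all 5 groups and made up 39.4 ± 3.50% of the summed semaphorin level per length in precursors and 70.0 ± 6.85% in mature macrophages, while Sema4a went from 33.7 ± 4.76% to 1.18 ± 0.23%. In precursor library 3 Sema4a had the larger share, 39.2% against 35.6% for Sema4d.

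**Figure D2:**
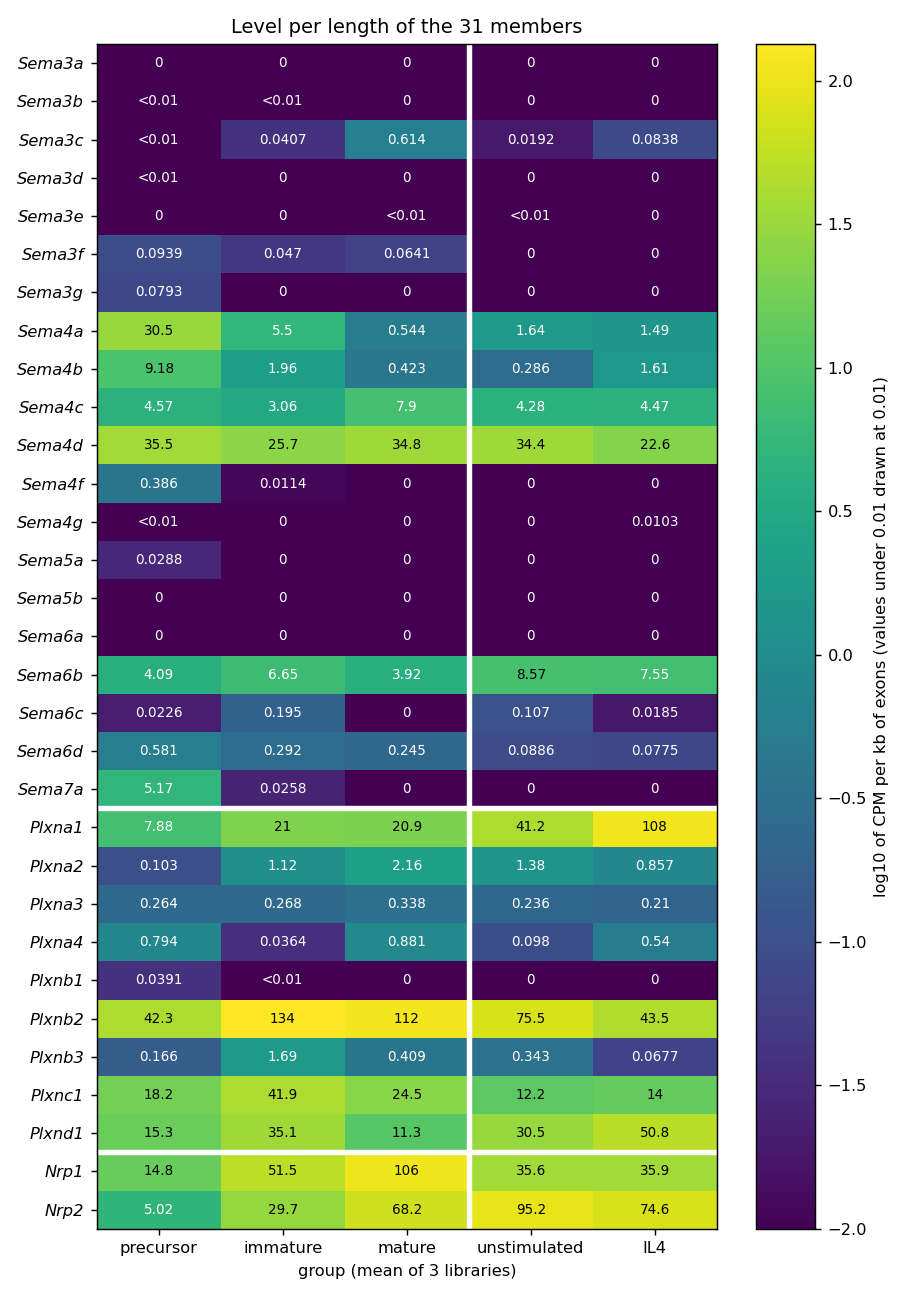
Mean level per length (CPM per kb of merged exons, 3 libraries a group) of all 31 members in the 5 groups, semaphorins above, plexins in the middle and neuropilins below, with the value printed in each cell and colour on a log10 scale. The columns left and right of the white line come from tables scaled separately; most semaphorins are at or near 0, and Plxnb2, Nrp1, Nrp2, Plxna1 and Sema4d hold the highest values.

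Tested gene by gene across all 13359 genes kept in the differentiation table, most receptors rose and 5 of the 9 tested semaphorins fell between precursors and immature macrophages. Of the 19 members tested, 8 rose (6 plexins and both neuropilins), 6 fell (5 semaphorins and Plxna4) and 5 did not pass an adjusted p of 0.05 (Benjamini-Hochberg over all genes, edgeR). For all genes, 49.2% were called in that comparison, 22.5% higher and 26.6% lower, so being called is common there. None of the 9 tested semaphorins was called higher. Of the 5 that fell, Sema7a and Sema4f had enough reads for testing only in precursors. A fall from precursors was thus the only call open to them, also in the mature group, and both enter the median of their class. The median log2 fold change was -0.98 for the semaphorins tested, 1.31 for the plexins, 2.18 for the neuropilins and -0.07 for all genes. From immature to mature macrophages 10 of 19 members were called, 6 higher and 4 lower, where 14.9% of all genes were called, 7.52% higher and 7.38% lower. Between mature macrophages and precursors 8 members were called higher and 5 lower, against 54.3% of all genes called, 25.8% higher and 28.5% lower. Sema3c, called higher in both comparisons with the mature group, had enough reads for testing only in mature macrophages. A rise there was thus the only call open to it. All 3 comparisons share libraries, and the p-values measure the spread between these 3 mice a group. Fewer cells of a type and less RNA per cell cannot be told apart in RNA from whole cultures.

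**Figure D3:**
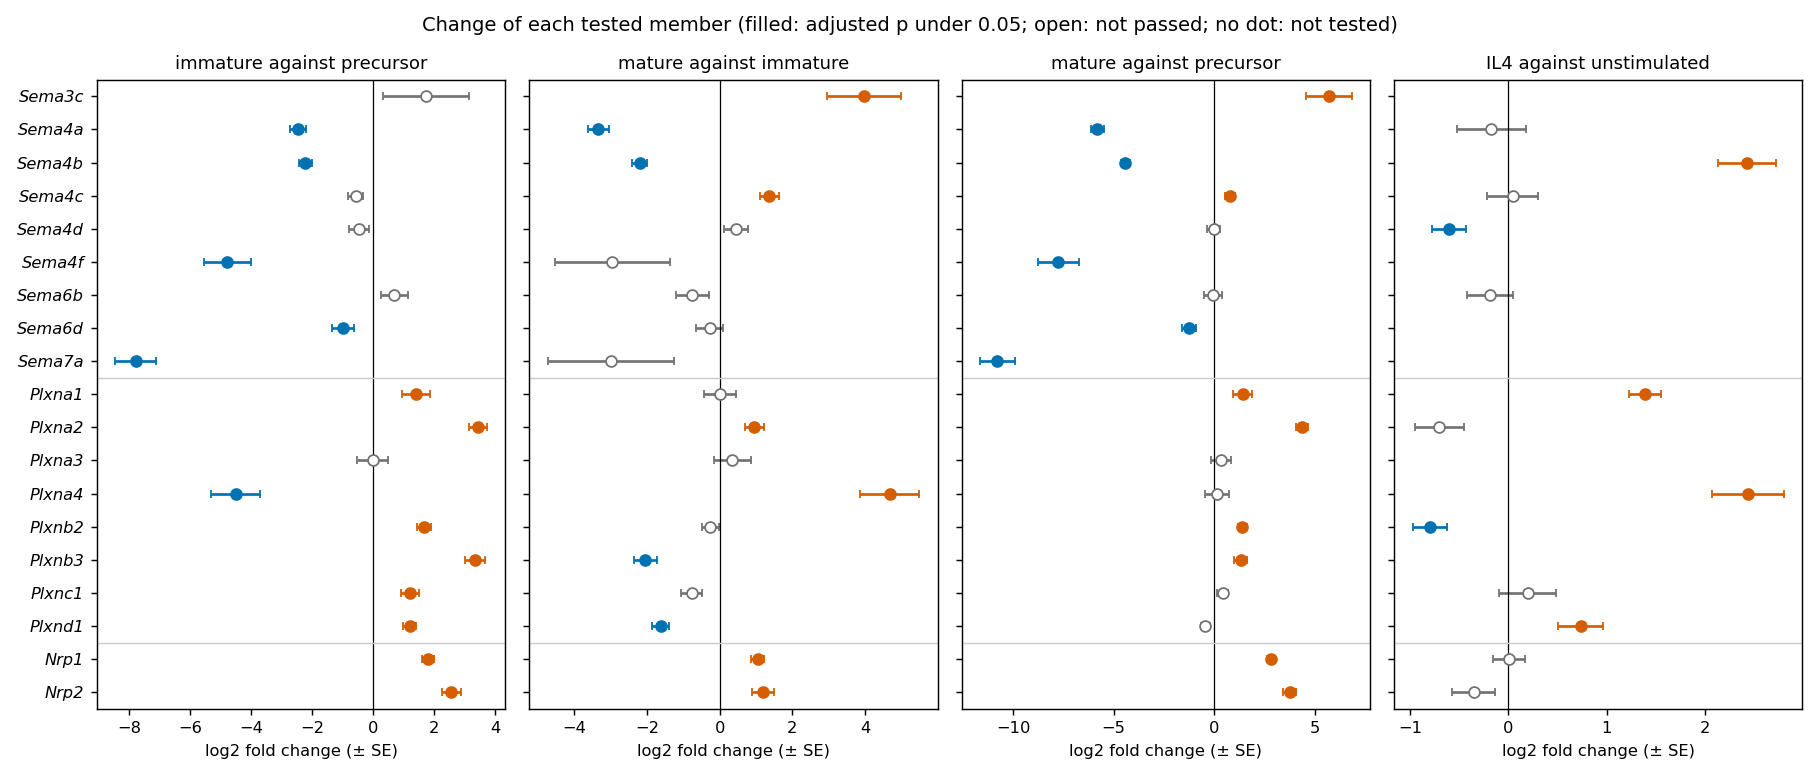
Log2 fold change ± SE of each tested member in the 4 comparisons (the first group named over the second), semaphorins above, plexins in the middle and neuropilins below; each panel has its own scale. Filled orange dots were called higher, filled blue dots lower at an adjusted p of 0.05, open dots did not pass, and a missing dot was not tested; between precursors and immature macrophages 8 members are orange and 6 blue.

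Among the ligands, Sema4a had the steepest stepwise loss of those still detected in mature cells. It encodes a membrane semaphorin known for co-stimulating T cells. Its CPM were 142, 157 and 195 in precursors, 38.5, 28 and 22.8 in immature and 1.94, 3.28 and 3.60 in mature macrophages. No group overlapped another, and the log2 fold changes were -2.46 ± 0.26 at the first step (adjusted p = 3.76e-05) and -3.34 ± 0.29 at the second (adjusted p = 7.29e-05). Sema4b, another class 4 membrane ligand, followed the same course with 47.6, 55.6 and 52.3 CPM, then 12.3, 11.3 and 9.71 and 2.91, 2.11 and 2.14. Its groups were also separate (-2.22 ± 0.20 and -2.21 ± 0.22 on the log2 scale, adjusted p = 1.35e-05 and 0.000175). Both falls ran beside those of the neutrophil, monocyte and B cell marker sums given above, and the part of those cells in them was not tested.

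Sema7a, a lipid-anchored ligand of Plxnc1 and of an integrin, was nearly confined to precursors within the differentiation table. It stood at 16.2, 18.3 and 16.6 CPM in precursors and at 0, 0 and 0.256 in immature macrophages, and no read fell on it in mature macrophages or in the IL4 table. Its 907 reads in precursors against 2 in immature macrophages make a ratio of 262 (95% counting interval 72.3 to 2167), and it was at least 196-fold lower in mature macrophages (adjusted p = 3.29e-05 and 1.48e-05). Sema4f showed the same pattern at a lower level: 2.17, 2.67 and 1.28 CPM in precursors, 2 reads in immature macrophages and none later. Its ratio was 33.2 (interval 8.99 to 278, adjusted p = 0.00101), and it was at least 24.8-fold lower in mature macrophages. Sema6d, a membrane ligand of Plxna1, had 6.85, 5.37 and 6.18 CPM in precursors, 4.02, 2.15 and 3.07 in immature and 1.70, 3.63 and 2.45 in mature macrophages. Its fall at the first step was called (-0.98 ± 0.36, adjusted p = 0.0415) but not with the mouse number as a block (adjusted p = 0.0777), nor without any 1 of 5 of the 6 libraries compared (adjusted p = 0.0672 to 0.16).

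Sema4d, known as CD100 and a ligand of B plexins and of the lymphoid receptor CD72, did not pass in differentiation, where Sema4a and Sema4b fell. It had 261, 307 and 251 CPM in precursors, 241, 189 and 161 in immature and 150.2, 220.3 and 431 in mature macrophages. The 3 mature libraries covered a range wider than that of both other groups together. The 95% interval of the log2 difference between mature macrophages and precursors was -0.68 to 0.62. Sema6b, a membrane ligand of A plexins, had 16.7, 17.2 and 14.8, 15.2, 27.7 and 36.2 and 6.23, 14.3 and 26.2 CPM in the same order. Its groups overlapped in every pair and it passed none of the tests, except that without mature library 3 its difference from immature to mature was called (adjusted p = 0.0472).

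Sema4c and Sema3c were the ligands that rose late. Sema4c, a ligand of Plxnb2, had 24.5, 19.2 and 19.3 CPM in precursors, 14.9, 12.4 and 15 in immature and 24.4, 48.3 and 36.2 in mature macrophages. The mature libraries lay above all immature ones (log2 fold change 1.36 ± 0.26, adjusted p = 0.00576), but the lowest of them lay within the precursor range. Against precursors the call for Sema4c (adjusted p = 0.0208) was lost without precursor library 2 or 3 or mature library 2 (0.0696 to 0.0873). Of its exon bases 7.3% are shared with a gene on the other strand that had 0 to 9 reads a library, and the strand setting of the counts is not given. Sema3c, the one secreted semaphorin with a group mean above 1 CPM, had 0.0788, 0.409 and 0.383 CPM in immature and 10.7, 1.17 and 1.30 in mature macrophages. Only in mature macrophages did it have enough reads for testing, so a rise there was the only call open to it. Mature library 1 was far above the others, and without it the log2 fold change of 3.97 ± 1.03 (adjusted p = 0.0262) became 2.14 (adjusted p = 0.101). With the mouse number as a block it was 3.34 (adjusted p = 0.0713). The call was also lost without any of the immature libraries (adjusted p = 0.0561 to 0.0877) and in a fit of only the 6 libraries compared (adjusted p = 0.0565). Sema6c, a further membrane ligand, had 38 reads over the immature libraries and none over the mature ones, at least 14.2-fold lower, and was not among the genes tested. Sema4g had 4 reads in precursors, none later in that table and 1 with IL4.

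**Figure D4:**
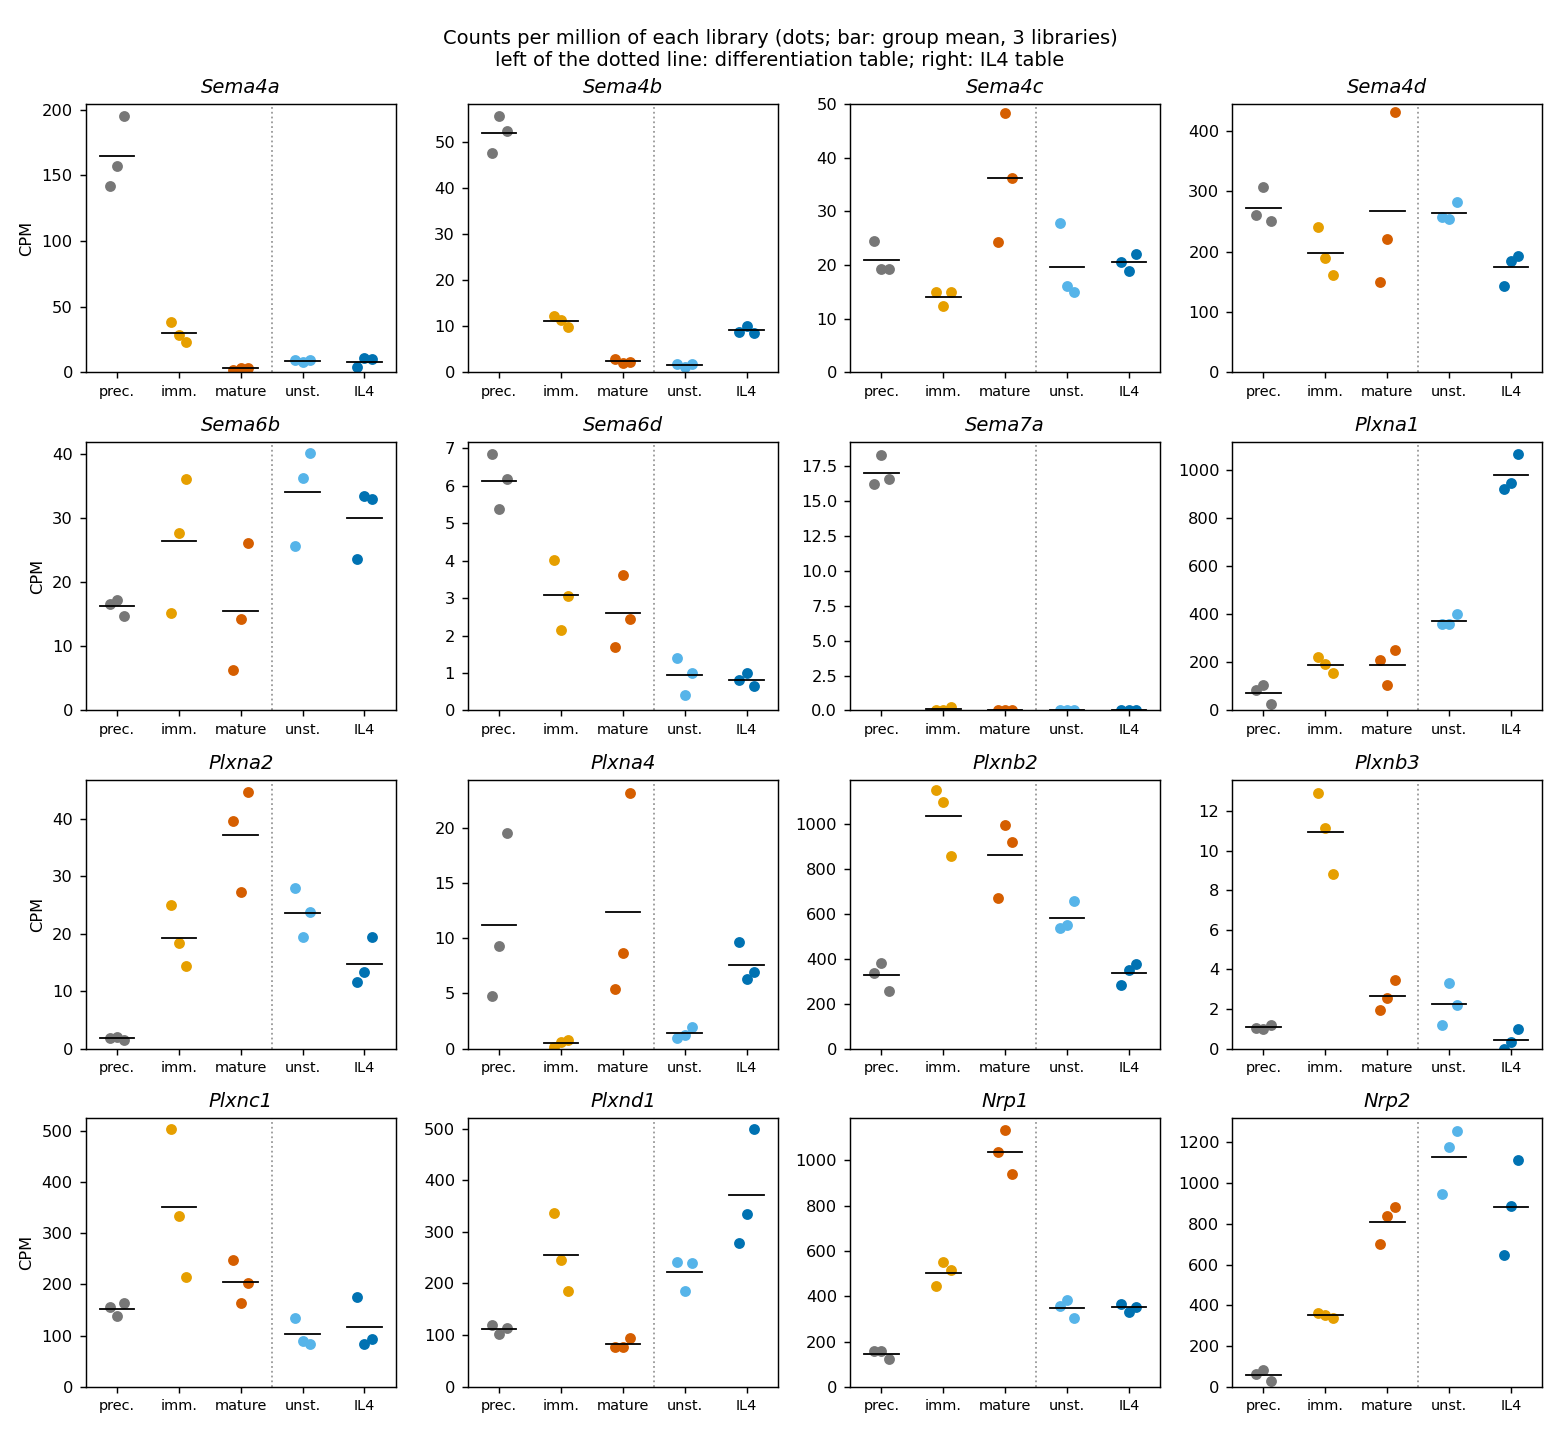
CPM of the 16 members with a group mean of at least 5 in the differentiation table, 1 panel a gene, each with its own linear scale from 0. Dots are the 3 libraries of precursors (prec.), immature (imm.), mature, unstimulated (unst.) and IL4-treated macrophages and bars their mean, with the IL4 table right of the dotted line; Sema4a and Sema4b fall at each step of differentiation while Nrp1 and Nrp2 rise.

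Plexins split by the step at which they moved. Plxnb2, the most abundant plexin in CPM per kb through differentiation and a receptor of class 4 semaphorins, had 339, 382 and 258 CPM in precursors, 1152, 1098 and 857 in immature and 670.0, 997 and 921 in mature macrophages. It rose at the first step without overlap (log2 fold change 1.67 ± 0.24, adjusted p = 0.000243), and the second step, where the ranges overlap, did not pass (95% interval -0.71 to 0.19). Plxna1, which pairs with neuropilins for class 3 ligands and binds class 6 ligands alone, had 84.4, 104 and 25.8, 223, 191 and 156 and 212, 107 and 251 CPM. Precursor library 3 was the lowest of all. The first step was called (log2 fold change 1.41 ± 0.45, adjusted p = 0.0239), though not without immature library 1 or 2 (adjusted p = 0.0524 and 0.0532). Against precursors the mature level was 1.41 higher on the log2 scale (adjusted p = 0.0216), and that call was lost without mature library 1 or 3 (adjusted p = 0.0533 and 0.0647). Plxna2, a receptor of the same type, rose from 1.78, 1.98 and 1.53 CPM to 24.9, 18.3 and 14.4 and 39.6, 27.3 and 44.5. Its first step was free of overlap (log2 fold change 3.43 ± 0.29, adjusted p = 9.83e-06), and the second was called (0.95 ± 0.26, adjusted p = 0.0319) but not with the mouse number as a block (adjusted p = 0.0506) or without immature library 2 or 3 or mature library 1 or 3 (0.0671 to 0.121).

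Plxna4, which also serves class 3 and class 6 semaphorins, dipped in the middle. Its CPM were 4.74, 9.33 and 19.5 in precursors, 0.158, 0.614 and 0.767 in immature and 5.42, 8.66 and 23.2 in mature macrophages. All immature libraries were below all others, with log2 fold changes of -4.52 ± 0.81 and then 4.68 ± 0.81 (adjusted p = 0.00105 and 0.00372), and mature macrophages and precursors overlapped. Plxnb3, a receptor of Sema5a, did the opposite, with 1.05, 0.969 and 1.20, 12.9, 11.2 and 8.82 and 1.94, 2.57 and 3.44 CPM. It peaked in immature macrophages without overlap (3.35 ± 0.33 up, then -2.04 ± 0.31, adjusted p = 2.57e-05 and 0.00192). Plxnd1, the receptor of Sema3e, also peaked there, at 336, 246 and 186 CPM against 119, 102 and 115 in precursors and 76.6, 76.2 and 95.4 in mature macrophages. The rise (log2 fold change 1.20 ± 0.22, adjusted p = 0.00126) and the later fall (log2 fold change -1.63 ± 0.22, adjusted p = 0.00105) were both free of overlap, and mature macrophages lay below precursors without passing the test (adjusted p = 0.114). For Plxnc1, the receptor of Sema7a, precursors had 155, 139 and 163 CPM, immature macrophages 503, 334 and 214 and mature macrophages 247, 163 and 203. Its rise at the first step was called (log2 fold change 1.20 ± 0.29, adjusted p = 0.00543), and its difference at the second was -0.78 ± 0.28 (adjusted p = 0.0907), which passed without immature library 3, the lowest of its group (-1.08, adjusted p = 0.0174). Plxna3 stayed between 2.08 and 2.66 CPM in group mean and passed no test in counts.

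Both neuropilins climbed at each step. Nrp1 had 157, 156 and 123 CPM in precursors, 446, 551 and 515 in immature and 1036, 1136 and 938 in mature macrophages. The 3 groups were separate, with log2 fold changes of 1.80 ± 0.19 and 1.04 ± 0.19 (adjusted p = 3.83e-05 and 0.00451). Nrp2 went from 63.3, 84.1 and 30.8 CPM to 363, 354 and 340.0 and 699, 840.5 and 883. Its groups did not overlap either (2.57 ± 0.32, adjusted p = 0.000101, and 1.20 ± 0.30, adjusted p = 0.0232), but the second call was lost without any of the immature libraries or mature library 2 (adjusted p = 0.0558 to 0.0869). From precursors to mature macrophages Nrp2 rose 13.6-fold and Nrp1 7.14-fold in fitted fold change. Nrp1 made up 75.6 ± 6.83% of the summed neuropilin level per length in precursors and 60.8 ± 4.10% in mature macrophages. In the IL4 table it made up 27.5 ± 4.53% without IL4, where Nrp1 had 359, 385 and 302 CPM and Nrp2 946, 1178 and 1257. The deposited gene bounds of Nrp1 differ between the tables (chr8:128358604-128503363 in the first and chr8:128359073-128505462 in the second), while those of Nrp2 are the same (chr1:62703285-62818695), and no level was tested across tables.

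With IL4 the plexins exchanged places while the neuropilins did not pass the test. Of 13 members tested, 4 were called higher (Plxna1, Plxna4, Plxnd1 and Sema4b) and 2 lower (Plxnb2 and Sema4d), where 20.8% of 8936 genes were called, 10.5% higher and 10.3% lower. Plxna4 and Sema4b had enough reads for testing only with IL4, so a rise was the only call open to them. Plxna1 had 358, 359 and 403 CPM unstimulated and 921, 948 and 1065 with IL4, without overlap (log2 fold change 1.39 ± 0.16, adjusted p = 0.000138). Of its exon bases 10.7% are shared with a gene on the other strand that had no read in the differentiation table and is not listed in the IL4 table. Plxnb2 moved the other way, from 539, 552 and 658 CPM to 282, 349 and 376. Its groups were separate as well (log2 fold change -0.80 ± 0.18, adjusted p = 0.00802). Of the summed plexin level per length, Plxna1 made up 25.6 ± 1.03% unstimulated and 49.7 ± 1.97% with IL4, and Plxnb2 46.7 ± 2.90% and 20.0 ± 1.76%. With IL4 Plxna1 had the highest level of all members per length of merged exons (108 ± 8.49 CPM per kb), while by the longest transcript Nrp2 stood at 131 and Plxna1 at 108. In differentiation Plxnb2 had made up 49.4 ± 3.84% in precursors and 64.6 ± 8.97% in mature macrophages.

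**Figure D5:**
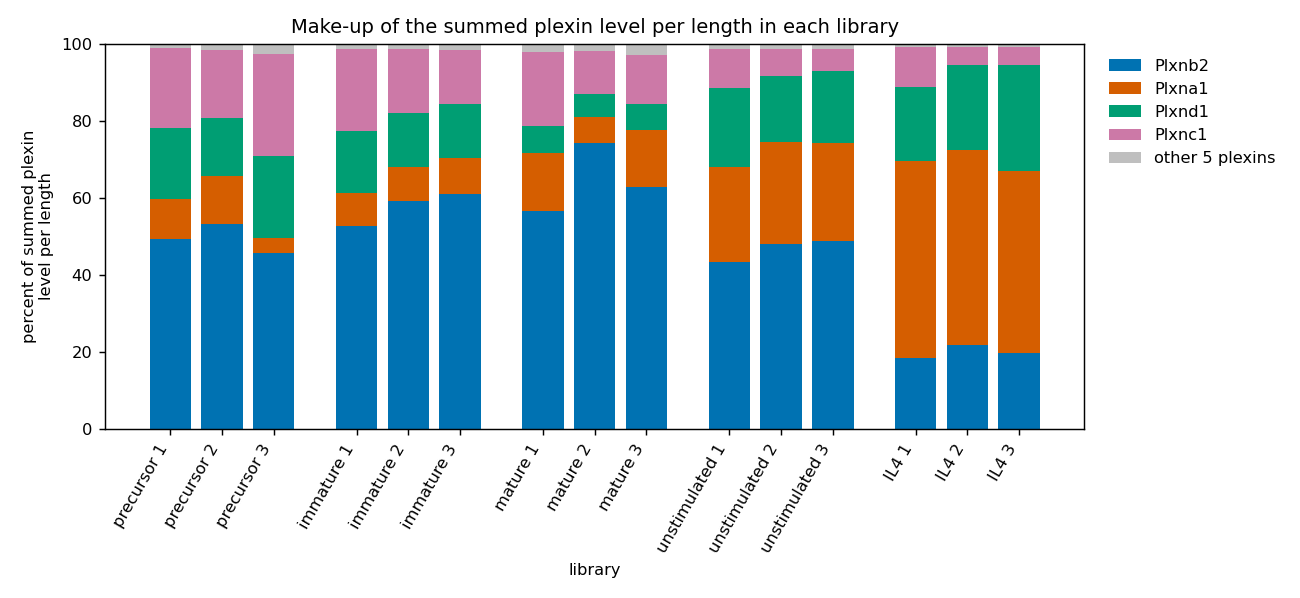
Share of each named plexin in the summed plexin level per length (percent, 0 to 100) in each of the 15 libraries, as stacked bars. Plxnb2 is the largest part in the 9 differentiation and 3 unstimulated libraries, and Plxna1 the largest in the 3 libraries with IL4.

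Plxna4 rose with IL4 from 0.939, 1.24 and 1.97 CPM to 9.64, 6.29 and 6.91 (log2 fold change 2.43 ± 0.37, adjusted p = 0.000775). For Plxna4, and for Sema4b below, a rise was the only call open, as stated above. Plxnd1 had 242, 185 and 240.2 CPM unstimulated and 279, 334 and 499 with IL4, without overlap. Its call (0.73 ± 0.23, adjusted p = 0.0426) was lost when any 1 of 5 of the 6 libraries was left out, all but IL4 library 1 (adjusted p = 0.0554 to 0.171). Among ligands, Sema4b rose from 1.88, 1.24 and 1.73 CPM to 8.84, 9.93 and 8.56 (log2 fold change 2.43 ± 0.30, adjusted p = 0.00019), the direction opposite to its course in differentiation, which was measured in other libraries. Sema4a, which had fallen beside it there, had 9.62, 7.83 and 9.12 and 3.75, 10.6 and 9.88 CPM and did not pass (95% interval -0.85 to 0.51 on the log2 scale). Sema4d went from 257, 253 and 282 CPM to 144, 185 and 193. That fall was called (log2 fold change -0.60 ± 0.17, adjusted p = 0.0291), but not without unstimulated library 2 or 3 or IL4 library 1 or 2 (0.0515 to 0.1). Plxna2 had 27.9, 19.4 and 23.7 and 11.5, 13.2 and 19.4 CPM, which overlap slightly, and passed only with the mouse number as a block (-0.71, adjusted p = 0.0165, against 0.0725 without) or without IL4 library 3 (-0.95, adjusted p = 0.0329).

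Members that did not pass with IL4 included both co-receptors. Nrp1 had 367, 333 and 354 CPM with IL4, within its unstimulated range (95% interval of the log2 difference -0.31 to 0.33). Nrp2 had 649, 887 and 1115 CPM and an interval of -0.78 to 0.07. Plxnc1 (135, 89 and 82.9 against 175, 83.1 and 93.8 CPM), Sema4c (27.9, 16.1 and 15 against 20.6, 18.9 and 22.1) and Sema6b (25.6, 36.3 and 40.2 against 23.6, 33.4 and 32.9) overlapped between the groups. Plxnb3 had 22 reads over the unstimulated libraries and 4 with IL4, and was below the filter for testing. The 8 macrophage marker genes, all with reads, summed to 42175 to 57231 CPM unstimulated and 20541 to 22425 with IL4, and Adgre1 fell from 436 ± 148 to 179 ± 21.8 CPM (adjusted p = 0.00316). The part of that shift in the members' changes was not tested. Neutrophil genes summed to 10.1 to 26 and 5.09 to 18.9 CPM (7 of 9 at 0 in each group), and all 7 B cell genes were at 0 in both. The letters TTCNNNNGAA bound by STAT6, the factor IL4 activates, were searched in the same promoter windows on both strands; their end letters can overlap the PU.1 core. They were in 6.95% of all promoters and in those of Plxna3, Sema3a, Sema3e and Sema4f among the members (4 of 37 member promoters). All 4 genes had too few reads to be tested with IL4.

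Known ligand and receptor pairs can be read side by side on the per-length scale. For Sema4d and Plxnb2 the levels were 35.5 ± 3.89 and 42.3 ± 8.12 CPM per kb in precursors, 34.8 ± 19 and 112 ± 22.2 in mature macrophages, and 22.6 ± 3.46 and 43.5 ± 6.24 with IL4. Both transcripts were thus present in the same cultures in every group. Sema7a and Plxnc1 stood at 5.17 ± 0.343 and 18.2 ± 1.50 CPM per kb in precursors, but in mature macrophages Plxnc1 was at 24.5 ± 5.05 with no read of the ligand. The limit of 3 reads over the mature libraries corresponds to 0.0883 CPM. For Sema6d and Plxna1 the levels per length were 0.581 ± 0.0701 and 7.88 ± 4.49 in precursors and 0.0775 ± 0.0159 and 108 ± 8.49 with IL4. Plxna1 was at 20.9 ± 8.23 in mature and 41.2 ± 2.84 CPM per kb in unstimulated macrophages. Levels with IL4 come from the table that was scaled separately, so no change from precursors is read from them. Neuropilins had next to no class 3 ligand beside them: against 174 ± 11.5 CPM per kb of neuropilins in mature macrophages, Sema3c was at 0.614 ± 0.764 and Sema3f at 0.0641 ± 0.0755. Beside Plxnd1, Sema3e had at most 1 read in any group.

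Genes known to work with the family were examined in lists by role. Their counts stand beside shares of 49.2% of all genes called at the first step, 14.9% at the second and 20.8% with IL4. Among other receptors of semaphorins and plexin partners, 4 of 9 rose and 4 fell at the first step (median log2 change 0.28, -0.07 for all genes). Trem2, which associates with Plxna1, rose from 144 ± 15.6 to 847 ± 72.9 CPM (2.55 ± 0.21 on the log2 scale, adjusted p = 7.47e-06), and Itga1, a subunit of the integrin that binds Sema7a, fell from 67.9 ± 14.9 to 2.29 ± 0.496 CPM (-4.90 ± 0.38 on the log2 scale, adjusted p = 6.09e-06). Itgb1, the other subunit of that integrin, rose at the same step from 235 ± 10.1 to 710 ± 129 CPM (1.59 ± 0.20 on the log2 scale, adjusted p = 0.000129). Cd72, a receptor of Sema4d, rose from 88.3 ± 14 to 431 ± 98.9 CPM (2.29 ± 0.21 on the log2 scale, adjusted p = 0.000115) at the second step. Of the growth factors and receptors that share neuropilins, 2 of 4 rose and 2 fell at the second step (median -0.02). With IL4 2 of the 4 rose and 1 fell. Flt1, a receptor of vascular endothelial growth factor, rose from 0.846 ± 0.623 to 103 ± 60.3 CPM (6.87 ± 0.60 on the log2 scale, adjusted p = 2.26e-05) with IL4, and Vegfa, the main ligand, rose from 7.79 ± 3.97 to 28.8 ± 10.9 CPM (1.85 ± 0.38 on the log2 scale, adjusted p = 0.00487). Vegfb, another ligand, fell from 39.3 ± 12.6 to 15.1 ± 3.64 CPM (-1.38 ± 0.28 on the log2 scale, adjusted p = 0.00473). Among the 5 Ras-family GTPases that plexins act on, 1 rose and 1 fell at the first step, and 2 rose and 1 fell with IL4, where Rras2 went from 0.0822 ± 0.142 to 9.82 ± 1.64 CPM (6.26 ± 0.56 on the log2 scale, adjusted p = 2.85e-05). Rras2 and Mras, the 2 that rose, had enough reads for testing only with IL4, as had Flt1. A rise with IL4 was thus the only call open to them. Downstream effectors had 4 of 11 higher and 1 lower with IL4 (median 0.34, 0.01 for all genes). Mical2, an enzyme that oxidises actin, rose from 10.4 ± 2.41 to 48.7 ± 19 CPM (2.23 ± 0.32 on the log2 scale, adjusted p = 0.00125) from immature to mature and from 21.7 ± 2.78 to 97.2 ± 25 CPM (2.17 ± 0.23 on the log2 scale, adjusted p = 8.12e-05) with IL4. Of 4 proteases that process semaphorins, 1 rose and 2 fell at the first step: Adam17 rose from 159 ± 19.1 to 364 ± 57.4 CPM (1.19 ± 0.20 on the log2 scale, adjusted p = 0.000717) and Mmp14 fell from 28.2 ± 16.3 to 1.38 ± 1.29 CPM (-4.25 ± 0.69 on the log2 scale, adjusted p = 0.000577). Mmp14 had enough reads for testing only in precursors, so a fall was the only call open to it.

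The authors' deposited table of genes under an adjusted p of 0.05 held 17, 10, 15 and 7 members for the comparisons in the order above. Of these, 14, 9, 13 and 6 were also called here, which is 82.4%, 90.0%, 86.7% and 85.7% of the authors' members and all of those called here, except in the second comparison (90.0%), where Plxna2 was called here alone. The authors' deposited table alone held Sema3g, Sema5a and Sema6c in the first comparison, Sema3g and Sema5a in the third, Sema6c in the second (adjusted p = 0.000106) and Plxnb3 with IL4 (adjusted p = 0.0246), all of which had too few reads for the filter used here.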

How the data were processed

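RNA of 15 libraries, 3 in each of 5 groups, was sequenced by Ion Torrent, with 1 ug of total RNA a library per the labels. The authors deposited whole-number read counts per gene, 1 table for differentiation (34245 genes) and 1 for IL4 (25965 genes), together with log2 values of reads scaled to library size, used here in an alternative only, and lists of genes with an adjusted p-value, quoted here as the authors' deposited table. HISAT2 2.0.5, edgeR and the builds GRCm38.p6 and GRCm39.p6 are named in the submitters' processing notes. For the read counter and strandedness, the choice was not given in the sources used here.

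Each table was fitted on its own in edgeR 4.0.16 (R 4.3.3): filterByExpr by group with a minimum count of 10, which left 13359 and 8936 genes, TMM scaling, glmQLFit and glmQLFTest without covariates, two-sided, adjusted by Benjamini-Hochberg over all genes and called under 0.05. Errors of log2 fold changes are standard errors, those of levels SDs of 3 libraries. CPM use TMM-scaled totals. Lengths are merged exons of GENCODE M21 (GRCm38), and promoters are those of RefSeq. On simulated counts for 13078 and 8922 genes the fit recovered 47.5% and 60% of 2-fold and 100% of 4-fold changes between precursors and immature macrophages and with IL4. The simulation gave every gene the same spread between replicates, so these shares do not carry over to members with a larger spread. Members with a group mean of at least 5 CPM are given library by library, those of 1 to 5 CPM by means, reads or ranges, and from each partner list up to 3 called genes a comparison with the lowest p, changed at least 2-fold and at 5 CPM or more, of which some are printed. Itgb1 is given beyond that rule, as the other subunit of the integrin of Itga1. The members and lists were chosen with earlier results of these data known. One further partner list is not reported here.

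Same-numbered mice had correlated deviations in the IL4 table (0.591, 0.175 and 0.414) but not in differentiation (-0.13 to 0.173). Pairs of unlike number in the IL4 table had -0.488 to 0.247, the highest of them above the 0.175 of mouse 2. The IL4 columns carry other numbers than the titles and were matched through the sample descriptions. Whether a mouse number marks the same animal in every group is not stated. Replicates differed by more than counting noise (chi-square per degree of freedom 6.38 to 101). Alternatives were RLE scaling, DESeq2 1.42.0, no filter, a floor of 1 CPM in 3 or more libraries, limma on the authors' log2 values, the mouse number as a replicate block, an adjusted p under 0.001, only the 6 libraries compared, each library left out, and the longest transcript as length.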

Additional observations from a re-analysis of the deposited data

How the results depend on the processing

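No alternative reversed a member's direction where it was called. Leaving aside the stricter threshold, 12 of 14 calls between precursors and immature macrophages, 7 of 10 from immature to mature, 10 of 13 between precursors and mature and 4 of 6 with IL4 held in every alternative run. At an adjusted p under 0.001, 5 members were higher and 3 lower at the first step, and 0 and 2 at the second. Between precursors and mature 4 were higher and 4 lower, and with IL4 3 were higher and 0 lower. Of all 13359 genes, 1026 were then higher and 1159 lower, 87 and 123, and 1408 and 1558 in that order. With IL4 it was 313 and 207 of 8936. Leaving out each library in turn gave 3 to 5 higher members from immature to mature and 1 to 3 lower with IL4. Among all genes these runs called 423 to 1266 higher and 677 to 857 lower, respectively. With the mouse number as a replicate block, 8 members were higher and 5 lower at the first step, 4 and 4 at the second, 8 and 5 between precursors and mature, and 4 and 3 with IL4. The block changed only the calls of Sema6d, Sema3c and Plxna2 named above. Of all 13359 genes, 2760 were higher and 3382 lower with it, 743 and 804, and 3146 and 3715 in that order. With IL4 it called more genes than the main fit, 1447 higher and 1436 lower of 8936, against 937 and 918. Sema4c was called lower at the first step in a fit of only the 6 libraries compared (adjusted p = 0.0255), and Plxna3 was higher in mature macrophages than in precursors by limma (1.45, adjusted p = 0.0274).

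With the longest transcript as length, summed neuropilin levels per length were 48.6 in precursors, 191 in immature, 404 in mature, 263 in unstimulated and 228 in IL4-treated macrophages. Summed plexins were then 96.7 in precursors, 269 in immature, 199 in mature, 180.1 in unstimulated and 232 in IL4-treated macrophages. Summed semaphorins were 142, 67.6, 75.9, 76.6 and 57.2 in the order of the groups. Fewer bases enter each length. Of the 31 members, 18 were left untested with IL4, against 12 in differentiation. The IL4 libraries were smaller, but Sema7a and Sema4f, tested in differentiation only, had no read in the larger mature libraries either. The part of library size in these counts was not tested.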
